A study of Mus musculus with 42 samples.

Results

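Platelet-derived growth factor (PDGF) is one of the proteins that were applied to the wounds, so its own ligand and receptor genes were followed across all treatments and times. The 7 genes were the ligands Pdgfa, Pdgfb, Pdgfc and Pdgfd, the receptors Pdgfra and Pdgfrb, and the receptor-like gene Pdgfrl. They were chosen by gene name. In GRCm38.p6 they lie at chr5:138976014-139000792 (Pdgfa), chr15:79995865-80024614 (Pdgfb), chr3:81036416-81214040 (Pdgfc), chr9:6168363-6534284 (Pdgfd), chr5:75151322-75198206 (Pdgfra), chr8:40926233-40990782 (Pdgfrl) and on chromosome 18 (Pdgfrb). Each had 1 probe set, so 7 probe sets were taken from 20672 on the array, of which 17928 carry a single gene symbol. The main comparison asks whether PDGF given to a wound changed the transcripts of its receptors.

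Skin was taken from db/db mice, which lack a working leptin receptor and are obese and diabetic. The wounded mice were females, 10 to 12 weeks of age per the study's methods, which name a BKS background where the labels name the C57BL/6 strain. A 6 mm wound on the back was treated topically, and the skin around it was cut out as a 2 mm circle. Wounds harvested at 24 h had received 1 dose and wounds harvested on day 7 had received 4 doses, the last on day 6. The control groups (4 samples at 24 h and 5 on day 7) received anti-Ragweed antibody by the labels and a control Fc protein by the methods. The IL-22-Fc groups (5 and 5 samples) received interleukin 22 fused to an antibody Fc part, at 50 µg by the 24 h labels and 20 µg in the design text. The VEGF groups (5 and 5 samples) received vascular endothelial growth factor A at 20 µg by the labels and 50 µg by the methods. The PDGF groups (5 and 3 samples) received recombinant PDGF-BB at 50 µg. A group of 5 untreated skin samples was labelled as day 0 baseline; the labels do not give its genotype, and its sample titles come from a separate number range, so wounding, genotype and any difference in preparation cannot be told apart there. Values are log2 RMA intensities given as mean ± SD, n is the number of arrays, and a difference is a log2 fold change with its standard error (SE). A gene was called when its p-value, adjusted over all 20672 probe sets, was under 0.05. Where a treatment is compared with control, rose and fell mean higher and lower than in control wounds of the same time.

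PDGF proteins are dimers. PDGF-AA, PDGF-BB and PDGF-AB are secreted ready to bind, whereas PDGF-CC and PDGF-DD need a protease to remove a CUB domain first. The dimers join receptor tyrosine kinases in pairs: PDGF-BB can bind both receptors, PDGF-AA and PDGF-CC act mainly through PDGFR-alpha, and PDGF-DD mainly through PDGFR-beta. In skin, dermal fibroblasts carry both receptors, and pericytes and vascular smooth muscle cells carry chiefly PDGFR-beta. Platelets, macrophages, endothelial cells and keratinocytes are known sources of ligand.

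PDGF-treated wounds had more Pdgfra transcript than control wounds on day 7, and the difference at 24 h was in the same direction but did not pass the adjusted test. Pdgfrb, the main receptor of pericytes, was not called in PDGF against control wounds at either time; against IL-22-Fc wounds it was called higher on day 7. The genes called on day 7 against control were Pdgfra and Pdgfb, both higher, and Pdgfd and Pdgfrl, both lower. In that comparison 34.9% of all probe sets were called, 18.9% higher and 16% lower. A change at least as large as that of Pdgfra was seen in 20.5% of all probe sets, and as that of Pdgfb in 18.8%. The day 7 PDGF arrays also stood apart in a measure of array quality given below, which cannot be told apart from PDGF treatment. VEGF, and not PDGF, was the treatment with a called difference in Pdgfrb against control. IL-22-Fc gave no called change in any of the 7 genes.

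Before the values, some facts of the arrays touch the results. The 3 PDGF arrays of day 7 stood apart in the control probe sets at the 5' ends of housekeeping transcripts, whose signal is sensitive to RNA integrity and labelling. The 5' probe set of Gapdh was at 11.48 ± 0.19 (SD, n = 3) in these arrays against 12.90 ± 0.06 (SD, n = 5) in control wounds, a difference of -1.42 (exact two-sided permutation test, p = 0.0179, the smallest the design allows). The 5' probe set of Actb differed by -0.63 in the same comparison (exact permutation p = 0.0179). One untreated array, replicate 5, was at 11.14 for 5' Gapdh, and the other 4 untreated arrays were between 12.50 and 12.92. At 24 h the PDGF arrays were 0.55 above control for 5' Gapdh (exact permutation p = 0.0635). Results of PDGF against control are therefore given also with the 5' level as a covariate. Under it 183 of 20672 probe sets (0.885%) were called on day 7 in place of 7207, with a median standard error of 0.36 in place of 0.12. The day 7 PDGF arrays were at 11.60 or lower for 5' Gapdh, and the other day 7 arrays at 12.65 or higher. The covariate fit thus cannot tell PDGF treatment and 5' level apart on day 7, whether a call is kept or lost. The epidermal genes Krt10 and Krt1 were at 12.98 or higher and 12.39 or higher in all 42 arrays, so the samples carried the marks of skin. RMA values come without detection calls, so the Y-linked genes Uty, Kdm5d, Eif2s3y and Usp9y, which female mice lack, were used to show background; their values ran from 2.31 to 3.78. The probe set of the Y-linked gene Sry was higher, at 4.62 to 5.56, so background differs between probe sets. All arrays were above 3.78 for 6 of the 7 PDGF genes, whereas Pdgfd was at or below it in 23 of 42 arrays. The tissue is a mixture of cells, so fewer cells of a type and less RNA per cell cannot be told apart.

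**Figure D1:**
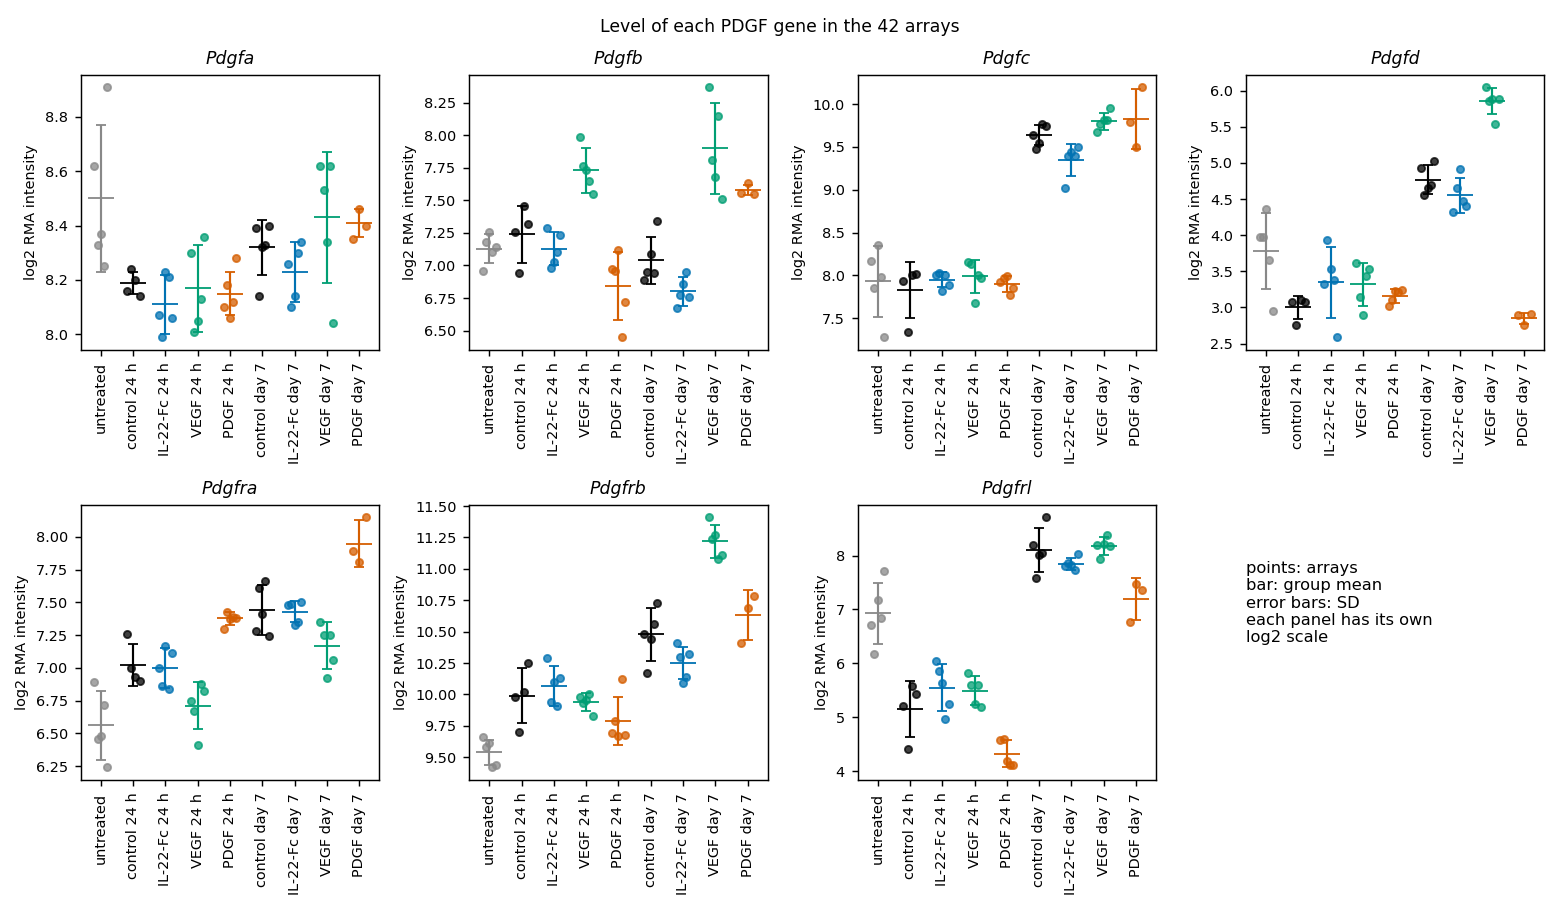
Level of each PDGF gene (log2 RMA intensity, vertical axis) in the 9 groups (horizontal axis); points are the 42 arrays, and bars and error bars are the group mean and SD. The Pdgfra arrays of PDGF wounds lie above all control arrays of the same time (7.30 or higher against 7.26 or lower at 24 h, 7.81 or higher against 7.66 or lower on day 7), and the Pdgfd arrays of PDGF wounds on day 7 lie at 2.76 to 2.91.

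Pdgfb encodes the chain of the protein that was applied. At 24 h its level was 7.26, 6.94, 7.46 and 7.32 in the control arrays and 6.97, 6.96, 7.12, 6.45 and 6.72 in the PDGF arrays. The PDGF arrays were on the low side, with overlap. The difference was -0.40 (SE 0.13, adjusted p = 0.121). On day 7 the control arrays were at 6.89, 6.95, 7.09, 6.94 and 7.34, and the PDGF arrays at 7.56, 7.63 and 7.55. Here every PDGF array was above every control array. Pdgfb was 0.54 higher (SE 0.15, 1.45-fold, adjusted p = 0.00697), and the difference between the 2 PDGF effects was 0.93 (SE 0.20, adjusted p = 0.000385). Neither was called with the 5' level as a covariate: the day 7 difference was 1.27 (SE 0.43, adjusted p = 0.153), that between the effects 0.81 (SE 0.37, adjusted p = 0.286) and the 24 h difference -0.25 (SE 0.15, adjusted p = 0.675). The applied protein and the transcript are separate things, and the arrays measured only the transcript. VEGF wounds had the highest Pdgfb levels, with 7.99, 7.76, 7.73, 7.65 and 7.55 at 24 h and 8.37, 7.81, 7.68, 8.15 and 7.51 on day 7. Both VEGF groups were clear of their controls. The difference of 0.86 on day 7 (SE 0.13, adjusted p = 7e-05) was called. That of 0.49 at 24 h (SE 0.13, adjusted p = 0.21) was not.

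Pdgfd, whose product signals mainly through PDGFR-beta once a protease has cut it, showed the widest separation of the 7 genes on day 7. The control arrays were at 4.93, 4.55, 4.65, 4.70 and 5.03, the VEGF arrays at 6.05, 5.86, 5.89, 5.54 and 5.89, and the PDGF arrays at 2.89, 2.76 and 2.91. The 3 groups did not overlap, with VEGF on top and PDGF within the range of the Y-linked genes. Pdgfd fell by 1.92 in PDGF wounds (SE 0.14, adjusted p = 1.02e-09), with those arrays at background. The size depends on the scale for so low a level: with 16 added to each value before the log, the difference was -0.90 (SE 0.09, adjusted p = 5.42e-07). In VEGF wounds it rose by 1.07 (SE 0.12, 2.10-fold, adjusted p = 2.04e-06). The 3 day 7 PDGF arrays and untreated replicate 5, the 4 arrays lowest in 5' Gapdh, were also low in Pdgfd, the untreated one at 2.95 where the other untreated arrays were at 3.98, 3.97, 4.36 and 3.66. With the 5' level as a covariate the difference of PDGF from control on day 7 was -2.10 (SE 0.42, adjusted p = 0.0231). At 24 h all wound groups were near background (group means of 3.00 to 3.35), so no fall could have been seen there.

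The window around the start site of Pdgfd in RefSeq (GRCm38.p6, chr9:6168236-6168535, plus strand, 250 bases before to 50 after the start) is shown because Pdgfd was the gene that differed most between treatments. The window of Pdgfc (chr3:81036166-81036465, plus strand) is shown beside it because both genes rose between 24 h and day 7 in control wounds. Of 7 motifs searched on both strands, Pdgfd held 1, a TATA box (TATAAA), and Pdgfc held 1, a CArG box, the element bound by serum response factor. These matches are in capitals. The TATAAA letters occur in 13.6% and the CArG box in 1.63% of 32851 windows of this length. The match begins at position -160 from the window's start site in Pdgfd and at position -17 in Pdgfc. The Pdgfd gene begins at 6168363, inside its window and before the start site used there. The Pdgfd match therefore lies closer to the gene's first base than -160. A match describes the letters only.
Pdgfd: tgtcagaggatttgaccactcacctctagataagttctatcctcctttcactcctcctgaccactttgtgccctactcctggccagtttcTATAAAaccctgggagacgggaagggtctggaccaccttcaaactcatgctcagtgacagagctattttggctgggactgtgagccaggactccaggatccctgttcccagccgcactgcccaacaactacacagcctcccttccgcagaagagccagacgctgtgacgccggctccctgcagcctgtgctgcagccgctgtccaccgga
Pdgfc: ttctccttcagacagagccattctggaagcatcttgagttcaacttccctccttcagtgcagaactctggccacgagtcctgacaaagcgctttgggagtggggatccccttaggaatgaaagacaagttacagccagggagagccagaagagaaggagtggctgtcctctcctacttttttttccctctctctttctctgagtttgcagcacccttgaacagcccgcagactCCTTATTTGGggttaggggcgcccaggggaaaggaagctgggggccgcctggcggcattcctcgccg

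Pdgfc, another ligand that needs cutting, was not called between any treatment and control, and rose with time. The 24 h control arrays were at 7.94, 7.34, 8.01 and 8.02 and the day 7 control arrays at 9.64, 9.48, 9.55, 9.77 and 9.74. No day 7 array came near a 24 h array. Pdgfc rose by 1.81 between these times (SE 0.15, 3.50-fold, adjusted p = 5.37e-12). PDGF wounds differed from control by 0.07 at 24 h (SE 0.12, 95% interval -0.18 to 0.33) and by 0.19 on day 7 (SE 0.13, 95% interval -0.08 to 0.47); with the 5' level as a covariate the latter was -0.46 (SE 0.38, adjusted p = 0.617). Against IL-22-Fc wounds on day 7, Pdgfc was 0.48 higher in PDGF wounds (SE 0.13, adjusted p = 0.00578). Pdgfa, the chain of PDGF-AA, stayed between 7.99 and 8.91 in all 42 arrays. Its difference of PDGF from control was -0.04 at 24 h (95% interval -0.21 to 0.13) and 0.09 on day 7 (95% interval -0.15 to 0.33).

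Pdgfra encodes PDGFR-alpha, the receptor that takes PDGF-AA, PDGF-BB and PDGF-CC. At 24 h the control arrays were at 7.26, 7.00, 6.93 and 6.90 and the PDGF arrays at 7.30, 7.43, 7.37, 7.39 and 7.38. All 5 PDGF arrays were above all 4 control arrays. The difference was 0.35 (SE 0.10, 95% interval 0.15 to 0.56, 1.28-fold, exact permutation p = 0.00794), with an adjusted p = 0.0641. With the 5' level as a covariate it was 0.44 (SE 0.11, adjusted p = 0.148). The highest control array (7.26) and the lowest PDGF array (7.30) lay close together, and the difference did not pass the test across all probe sets. Against IL-22-Fc wounds at 24 h, which were at 7.00, 6.86, 7.17, 6.84 and 7.11, Pdgfra was 0.38 higher in PDGF wounds (SE 0.09, adjusted p = 0.0133). Against VEGF wounds at 24 h, at 6.75, 6.67, 6.41, 6.88 and 6.82, it was 0.67 higher (SE 0.09, adjusted p = 9.52e-05). These comparisons share the PDGF arrays. Pdgfra in VEGF wounds lay below all control arrays at 24 h (difference -0.32, SE 0.10), and that difference was not called (adjusted p = 0.33).

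On day 7 the Pdgfra level was 7.28, 7.61, 7.41, 7.66 and 7.24 in control arrays and 7.89, 7.81 and 8.15 in PDGF arrays. The groups again did not overlap. Pdgfra was 0.51 higher with PDGF (SE 0.12, 95% interval 0.26 to 0.75, 1.42-fold, adjusted p = 0.00168, exact permutation p = 0.0357). With the 5' level as a covariate the difference was 0.44 (SE 0.36, adjusted p = 0.626), with a larger error. That fit cannot tell PDGF treatment and 5' level apart on day 7, so no conclusion is drawn from the size. Untreated replicate 5, the other array low in 5' Gapdh, had a Pdgfra level of 6.24, the lowest of all 42 arrays. Its Pdgfrl level of 7.72 was the highest of the untreated arrays, and its Pdgfb level of 7.14 lay within their range. This is a single array, and the part of the 5' level in these values was not tested. Compared with the other treatments on day 7, Pdgfra in PDGF wounds was 0.52 above IL-22-Fc (SE 0.12, adjusted p = 0.00123) and 0.78 above VEGF (SE 0.12, adjusted p = 1.53e-05). The PDGF effect on Pdgfra on day 7 minus that at 24 h was 0.15 (SE 0.15, 95% interval -0.15 to 0.46, adjusted p = 0.492). PDGF wounds on day 7 had the highest group mean of Pdgfra, and untreated skin the lowest at 6.56 ± 0.26 (SD, n = 5). Of neighbours in the order of the 9 group means, none differed after adjustment over the 56 neighbouring pairs of all 7 genes (exact permutation tests; the lowest adjusted p over all genes was 0.111).

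Pdgfra, on chromosome 5, is the receptor gene on which the question turned, so a start site window of it is shown whole (GRCm38.p6, chr5:75152001-75152300, plus strand). The window lies inside the gene, which begins at 75151322, so it does not cover the gene's first base. It is in lower case because it held none of the 7 motifs searched. Besides the TATA and CArG boxes these were CCAAT (in 37.4% of all windows), GGGCGG, the SP1 box (35.7%), TGANTCA, the AP-1 site (7.81%), CCGGAA, the ETS site (14.9%) and TTCNNNGAA, the STAT site (8.3%). That none was found says only that these letters are not in this window.
Pdgfra: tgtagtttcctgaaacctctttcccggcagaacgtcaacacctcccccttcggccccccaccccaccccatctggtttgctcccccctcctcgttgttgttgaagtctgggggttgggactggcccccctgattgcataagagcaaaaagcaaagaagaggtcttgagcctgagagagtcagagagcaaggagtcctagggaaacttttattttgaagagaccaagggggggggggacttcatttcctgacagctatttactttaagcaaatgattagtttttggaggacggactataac

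**Figure D2:**
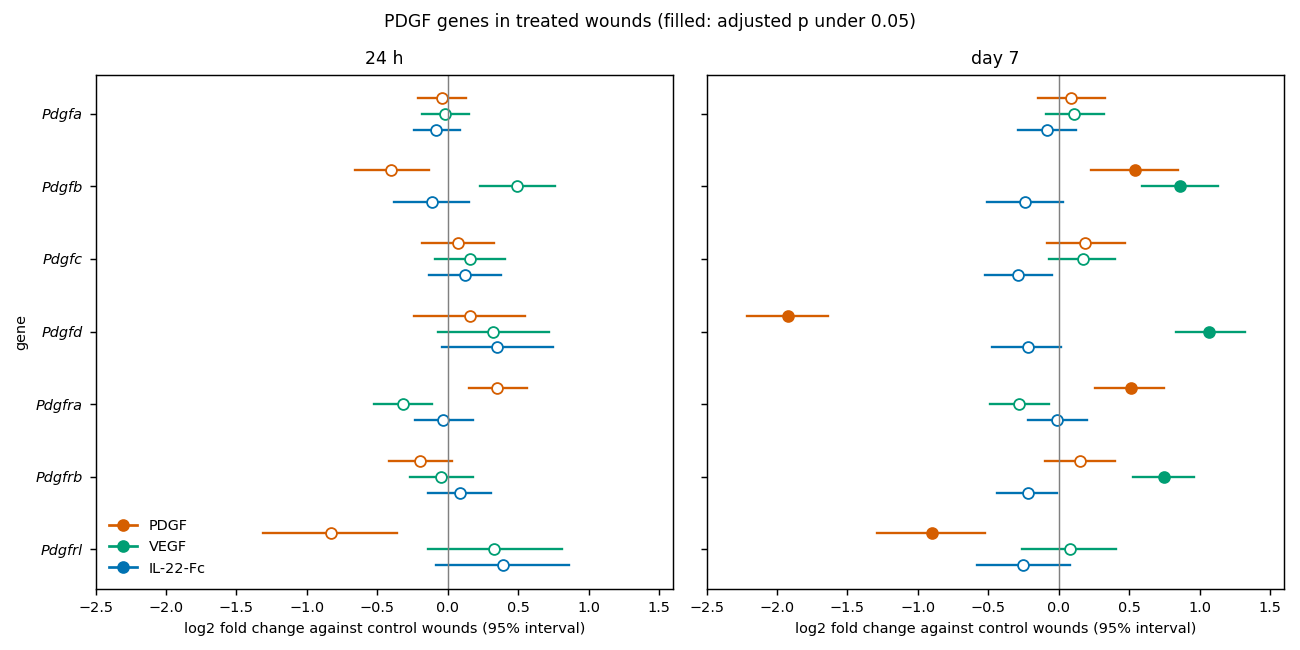
Difference of each treatment from control wounds (log2 fold change, horizontal axis, with 95% interval) for the 7 genes (vertical axis) at 24 h and on day 7; filled points have an adjusted p under 0.05. Pdgfra with PDGF is at 0.35 and 0.51, Pdgfd on day 7 is at -1.92 with PDGF and 1.07 with VEGF, and Pdgfrb is filled with VEGF on day 7 (0.75) and open with PDGF.

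Pdgfrb encodes PDGFR-beta, the receptor that pericytes need. At 24 h it was at 9.98, 9.70, 10.02 and 10.25 in control arrays and at 9.69, 9.79, 9.67, 10.12 and 9.68 in PDGF arrays. The ranges overlapped, but the PDGF arrays at 9.69, 9.67 and 9.68 were just below the lowest control array. The difference was -0.20 (SE 0.11, 95% interval -0.42 to 0.03, adjusted p = 0.393). With array weights it was -0.28 (SE 0.09, adjusted p = 0.0815). On day 7 the control arrays were at 10.48, 10.17, 10.44, 10.56 and 10.73 and the PDGF arrays at 10.41, 10.69 and 10.78. Here the overlap was nearly full. The difference was 0.15 (SE 0.12, 95% interval -0.10 to 0.40, adjusted p = 0.362), so a rise of more than 0.40 would fall outside this interval. The covariate fit gave 0.45 on day 7 (SE 0.37, adjusted p = 0.616) and -0.03 at 24 h (SE 0.12, adjusted p = 0.97). Against IL-22-Fc wounds, Pdgfrb was 0.38 higher in PDGF wounds on day 7 (SE 0.12, adjusted p = 0.0166) and differed by -0.28 at 24 h (SE 0.10, adjusted p = 0.10). VEGF wounds on day 7 were at 11.41, 11.24, 11.27, 11.08 and 11.11, above every array of the other groups. There Pdgfrb rose by 0.75 (SE 0.10, 1.68-fold, adjusted p = 3.18e-05), and PDGF wounds were 0.59 lower than VEGF wounds (SE 0.12, adjusted p = 0.000408). VEGF had no called difference in Pdgfrb at 24 h, and the VEGF effect on day 7 minus that at 24 h was 0.79 (SE 0.15, adjusted p = 0.000438). Among mural cell markers, 11 of 17 measured rose with VEGF on day 7 and none fell, with a list median of 0.58 against -0.01 over all probe sets; the pericyte marker Rgs5 rose by 2.05 (SE 0.16, adjusted p = 2.99e-08) and Cspg4 by 0.68 (SE 0.12, adjusted p = 0.000284). The mean log2 level of the list per array was 8.48 to 8.70 in VEGF wounds and 7.77 to 7.98 in control wounds. VEGF against control on day 7 called 5.96% of all probe sets higher and 8.74% lower. In the same comparison 14 of 15 endothelial markers rose and 1 fell (median 1.2), 4 of 23 fibroblast markers rose and 0 fell (median 0.24), 6 of 12 macrophage markers rose and 0 fell (median 0.40), 7 of 9 adipocyte markers fell and 0 rose (median -0.63), and 14 of 15 keratinocyte markers fell and 0 rose (median -0.70). The part of these cell types in the Pdgfrb result was not tested.

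Pdgfrl, a PDGF receptor-like gene without a kinase domain, differed from control in the opposite direction to Pdgfra under PDGF. On day 7 it was at 8.20, 7.58, 8.01, 8.04 and 8.71 in control arrays and at 6.76, 7.48 and 7.37 in PDGF arrays. The PDGF arrays were all lower. Pdgfrl was 0.90 lower than in control wounds (SE 0.18, 1.87-fold, adjusted p = 0.000553), and with the 5' level as a covariate the difference was -0.33 (SE 0.56, adjusted p = 0.836). Within PDGF wounds its mean was 4.32 at 24 h and 7.20 on day 7. At 24 h the control arrays were at 5.21, 4.41, 5.58 and 5.43 and the PDGF arrays at 4.58, 4.60, 4.19, 4.12 and 4.12. Only control replicate 2 reached into the PDGF range. The difference of -0.83 (SE 0.23) had an adjusted p = 0.0636, and with the 5' level as a covariate it was -0.50 (SE 0.25, adjusted p = 0.575). These PDGF arrays were all below 4.62, the lowest value of the Sry probe set, so the size depends on the scale. With 16 added to each value before the log the difference was -0.53 (SE 0.16, adjusted p = 0.101). PDGF wounds were lower than IL-22-Fc wounds at 24 h by -1.23 (SE 0.21, adjusted p = 0.00124) and than VEGF wounds by -1.17 (SE 0.21, adjusted p = 0.00137).

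Counted over the 7 genes, PDGF against control called 0 at 24 h, where 1.89% of all probe sets were called; without adjustment Pdgfb, Pdgfra and Pdgfrl had p under 0.05. On day 7 it called 4 of 7, 2 higher and 2 lower, where 34.9% of all probe sets were called, 18.9% higher and 16% lower. VEGF against control called 0 of 7 at 24 h (0.135% of all probe sets), with unadjusted p under 0.05 for Pdgfb and Pdgfra, and 3 of 7 on day 7 (14.7%), all higher, where 5.96% of all probe sets were higher and 8.74% lower. IL-22-Fc called 0 of 7 at 24 h (0.111%), where no member had an unadjusted p under 0.05, and 0 of 7 on day 7 (5.45%), where Pdgfc (-0.29, SE 0.11, adjusted p = 0.167) and Pdgfrb (-0.22, SE 0.10, adjusted p = 0.251) had unadjusted p under 0.05. Directly between treatments, PDGF against VEGF called 3 of 7 at 24 h (9.15%) and 4 of 7 on day 7 (39.7%), and PDGF against IL-22-Fc called 2 of 7 (7.49%) and 6 of 7 (38.1%). The change of effect from 24 h to day 7 was called for 2 of 7 genes with PDGF (32.3%), 2 of 7 with VEGF (8.85%) and 0 of 7 with IL-22-Fc (1.69%), where Pdgfc, Pdgfd, Pdgfrb and Pdgfrl had unadjusted p under 0.05. On day 7 the members' share with PDGF is therefore to be read against a background in which 7207 of 20672 probe sets were called. With a 1.5-fold minimum as well, PDGF against control called 0 of 7 at 24 h (0.914% of all probe sets) and 2 of 7 on day 7 (16%), PDGF against IL-22-Fc 1 of 7 (2.78%) and 3 of 7 (17.9%), control wounds at 24 h against untreated skin 2 of 7 (18.2%) and control wounds on day 7 against 24 h 3 of 7 (13.2%). The arrays of PDGF and control wounds did not overlap for 1 of 7 genes at 24 h (5.74% of all probe sets) and for 4 of 7 on day 7 (35.4%), and those of VEGF and control wounds for 3 of 7 on day 7 (10.5%).

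The course of the wound moved most of these genes as well. Against untreated skin, the control wounds at 24 h called 5 of 7 genes, 2 higher and 3 lower (39.5% of all probe sets, 19.3% higher and 20.2% lower): Pdgfra was 0.46 higher (SE 0.11, adjusted p = 0.00104) and Pdgfrb 0.44 higher (SE 0.11, adjusted p = 0.00105), whereas Pdgfrl was lower by -1.77 (SE 0.24, adjusted p = 1.72e-07), Pdgfd by -0.78 and Pdgfa by -0.31. By day 7, 5 of 7 were higher than in untreated skin and none lower (36.8% of all probe sets, 18.2% higher and 18.6% lower). These were Pdgfc by 1.71, Pdgfd by 0.99, Pdgfra by 0.88, Pdgfrb by 0.93 and Pdgfrl by 1.18. Pdgfrl thus was below untreated skin at 24 h and above it on day 7. Between the 2 wound times all 5 of these genes rose (30.1% of all probe sets were called, 14.1% higher), Pdgfrl by 2.95 (SE 0.24, 7.73-fold, adjusted p = 3.12e-12). Most fibroblast markers were below untreated skin at 24 h and above it on day 7, as were Pdgfrl and Pdgfd. Pdgfra and Pdgfrb, in contrast, were higher at both times. Of 23 fibroblast markers measured, 15 were lower and 4 higher at 24 h than in untreated skin, and on day 7 19 were higher and 1 lower. Their mean level per array was 9.05 to 9.86 in untreated skin, 8.57 to 9.18 in control wounds at 24 h and 10.37 to 10.95 on day 7. The part of fibroblast number in the receptor levels was not tested.

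**Figure D3:**
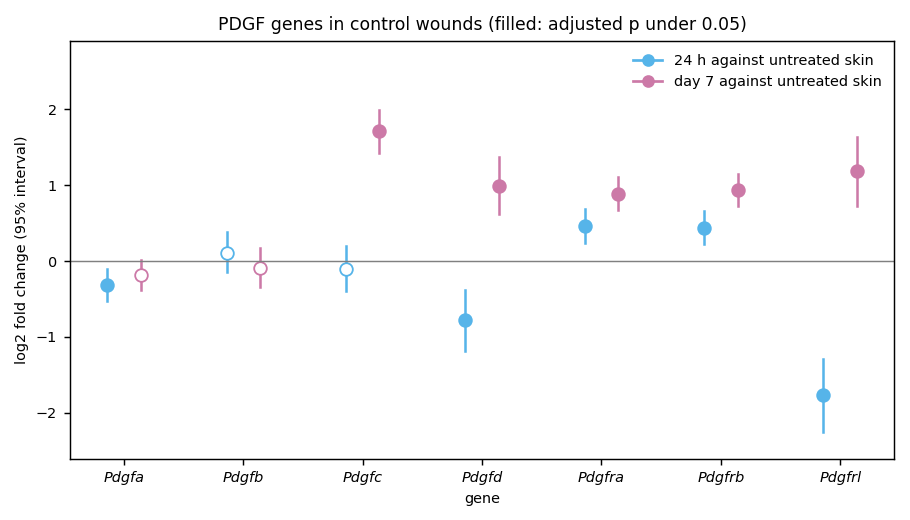
Difference of control wounds from untreated skin (log2 fold change with 95% interval, vertical axis) for the 7 genes (horizontal axis); filled points have an adjusted p under 0.05. Pdgfrl goes from -1.77 at 24 h to 1.18 on day 7, Pdgfra from 0.46 to 0.88 and Pdgfrb from 0.44 to 0.93.

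Below the receptors, the signal runs through adaptors, kinases and lipid enzymes that bind the phosphorylated tails. Of 26 such transducers measured, 0 were called by limma with PDGF at 24 h, with unadjusted p under 0.05 for 6. Over all probe sets 0.489% were called higher and 1.4% lower at that time. On day 7, 6 rose and 12 fell, beside 18.9% higher and 16% lower over all probe sets. The list median was -0.26 against 0.04 over all probe sets. Yes1, a Src family kinase, fell by 1.88 (SE 0.11), Rasa1, a Ras GTPase activating protein that docks on PDGFR-beta, fell by 1.88 (SE 0.15), Pik3r1, the regulatory subunit of PI 3-kinase, fell by 1.84 (SE 0.13) and Akt1 fell by 1.06 (SE 0.12). The adaptor Grb2 differed by 0.24 (SE 0.11, adjusted p = 0.0833). Under the 5' covariate 2 of the 26 were called on day 7, both lower.

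Of 16 genes that limit receptor signalling or carry the receptor into the cell, 1 was called at 24 h: Spry2, a feedback inhibitor of receptor tyrosine kinases, rose by 0.44 (SE 0.09, adjusted p = 0.0189). The 24 h shares over all probe sets were 0.489% higher and 1.4% lower. On day 7, 4 rose and 5 fell, beside 18.9% higher and 16% lower over all probe sets. The called genes included the phosphatase gene Ptpn12 (-1.54, SE 0.14) and the ubiquitin ligase gene Cblb (0.80, SE 0.17). Of 16 proteases that cut PDGF, binding proteins and co-receptors, Pcsk5, a proprotein convertase, was the 1 called at 24 h (-1.51, SE 0.25, adjusted p = 0.00291), beside the same 24 h shares. On day 7, 4 rose and 6 fell, beside the day 7 shares of 18.9% higher and 16% lower. Thbs1 (-1.86, SE 0.34), the integrin gene Itgav (-1.29, SE 0.15) and the co-receptor gene Nrp1 (-1.01, SE 0.12) were among those that fell. With the covariate neither of these lists had a called gene at either time.

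Genes known to respond to growth factors were also listed. Of 29 measured at 24 h, 3 rose and 1 fell with PDGF: Hmga2, a chromatin protein of growing mesenchymal cells, rose by 2.63 (SE 0.33, adjusted p = 0.000177), the matrix glycoprotein gene Tnc by 1.75 (SE 0.33, adjusted p = 0.00683) and the cyclin gene Ccnd1 by 0.63 (SE 0.14, adjusted p = 0.0259), and Ccn2 fell by 0.50 (SE 0.13, adjusted p = 0.0483). The background in that comparison was 0.489% higher and 1.4% lower. On day 7, 5 rose and 6 fell, with a list median of 0.11 against 0.04 over all probe sets. These counts are close to the day 7 shares over all probe sets, 18.9% higher and 16% lower. The covariate fit called 1 of the 29 at 24 h, higher, and 0 on day 7, where the median was 1.16. Among other relatives, 13 genes of the VEGF family and the related class III receptor kinases held 0 higher and 2 lower at 24 h, Vegfd (-0.76, SE 0.14) and Vegfc (-0.63, SE 0.13), and 5 higher and 1 lower on day 7, the last being Kitl, the ligand of Kit (-1.93, SE 0.11). Under the 5' covariate these 13 genes held 0 higher and 0 lower at 24 h, and 0 higher and 1 lower on day 7.

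**Figure D4:**
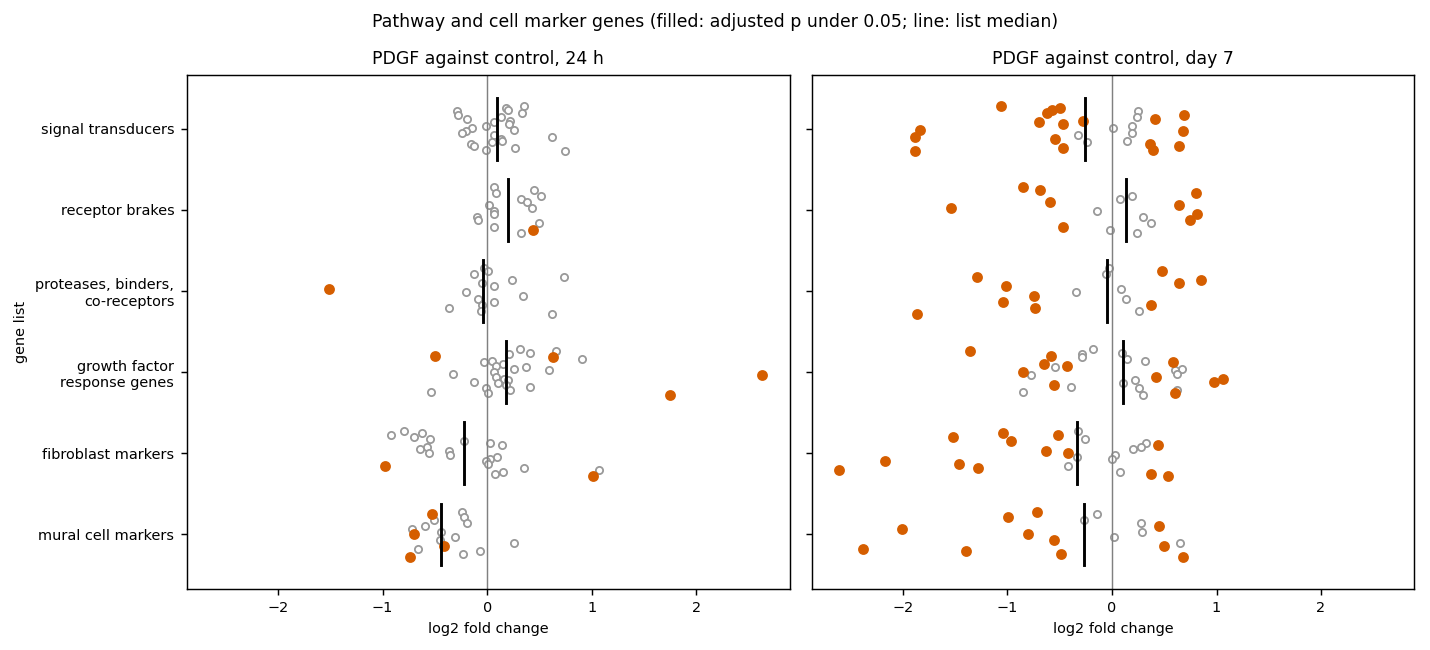
Difference of PDGF from control wounds (log2 fold change, horizontal axis) for each measured gene of 6 lists (vertical axis) at 24 h and on day 7; filled points have an adjusted p under 0.05 and black lines are list medians. At 24 h few points are filled, with Hmga2 at 2.63 the farthest right. On day 7 the transducers spread to both sides with 12 of 26 lower, beside 16% of all probe sets.

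Cells that carry the receptors were followed by their markers. With PDGF at 24 h, 1 of 23 fibroblast markers rose (Twist2, 1.01, SE 0.13, adjusted p = 0.00019) and 1 fell (Pi16, -0.98, SE 0.18), and 4 of 17 mural markers fell and none rose, among them Kcnj8 (-0.70, SE 0.14) and Notch3 (-0.41, SE 0.10). Over all probe sets 0.489% were called higher and 1.4% lower at 24 h. On day 7, 3 fibroblast markers rose and 10 fell, led by Prrx1 (-2.61, SE 0.15) and Lum (-2.17, SE 0.21), and 3 mural markers rose and 8 fell, led by Rgs5 (-2.38, SE 0.19). The mean level of the fibroblast list per array was 9.84 to 10.41 with PDGF and 10.37 to 10.95 in control wounds. Beside a share of 18.9% higher and 16% lower over all probe sets on day 7, 7 of 12 macrophage markers rose and 0 fell, and 2 of 9 platelet markers rose and 0 fell, the latter close to that share. Of 15 endothelial markers, 5 rose and 3 fell on day 7 with PDGF, whereas 14 rose and 1 fell with VEGF. With VEGF on day 7, 5.96% of all probe sets were higher and 8.74% lower. Of 9 adipocyte markers 7 fell on day 7. Under the 5' covariate, day 7 left 0 higher and 1 lower among fibroblast markers, 1 higher and 0 lower among endothelial markers, and 0 called among mural, macrophage, platelet and adipocyte markers; at 24 h it left 1 fibroblast marker, higher, and 0 of the 4 mural calls. The part of each of these cell types in the levels of the PDGF genes was not tested.

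**Figure D5:**
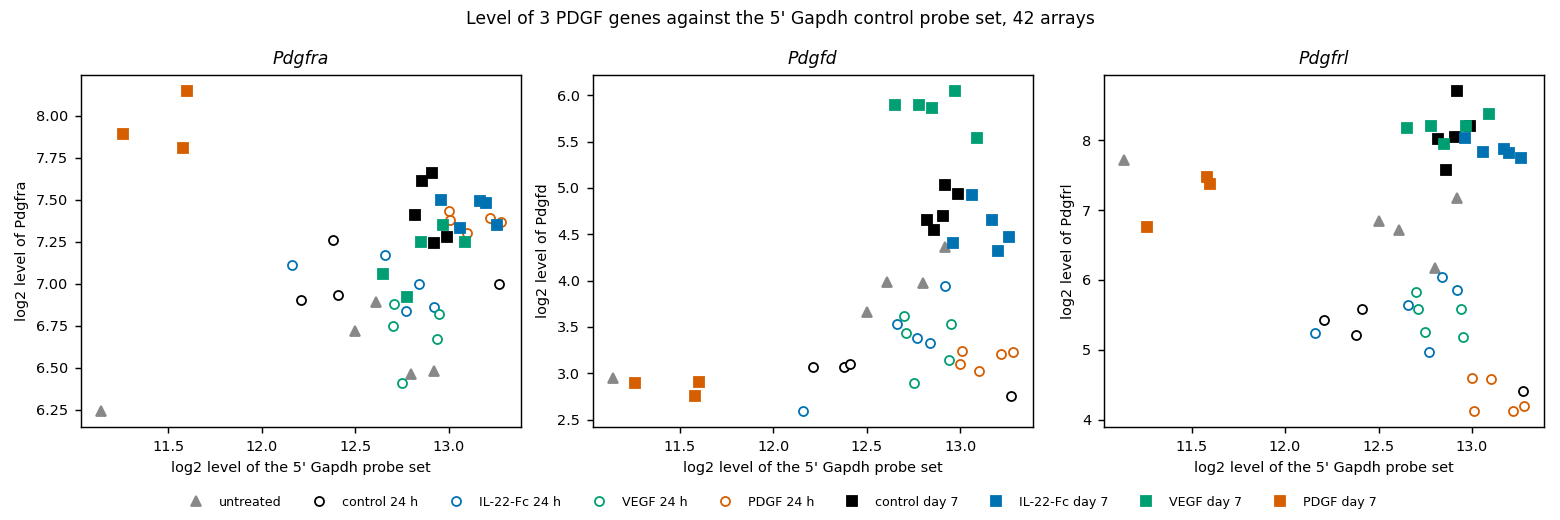
Level of Pdgfra, Pdgfd and Pdgfrl (log2 RMA intensity, vertical axes) against the 5' Gapdh probe set (log2 RMA intensity, horizontal axes); each point is 1 of 42 arrays, coloured by group. The 3 PDGF arrays of day 7 (11.26 to 11.60) and 1 untreated array (11.14) lie apart from the rest, and Pdgfd is at 2.95 or lower in these 4 arrays.

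Each gene had its own set of most similar probe sets. Over the 42 arrays, which share the groups and any array-wide differences, the highest Pearson correlations were r = 0.85 for Pdgfra with Bcat1, r = 0.90 for Pdgfrb with Pdia5, r = 0.98 for Pdgfrl with Fndc1, r = 0.96 for Pdgfc with Grb10, r = 0.96 for Pdgfd with Prrg1, r = 0.83 for Pdgfb with Flt4 and r = 0.75 for Pdgfa with Kif26a. The lysyl oxidase gene Loxl1 was the second for Pdgfrb (r = 0.89), and the collagen gene Col14a1 the third for Pdgfrl (r = 0.97). Among the 7 genes, the pairs that ran most alike over all arrays were Pdgfc with Pdgfrl (r = 0.82) and Pdgfc with Pdgfrb (r = 0.81). Once group means were removed these were r = 0.18 and r = 0.23. The receptors Pdgfra and Pdgfrb had r = 0.46 over all arrays and r = 0.10 within groups.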

How the data were processed

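RNA of 42 skin samples was measured on Affymetrix Mouse430V2 arrays. The authors' intensities were RMA normalised, and of several probe sets for an Entrez gene the most variable was retained; the deposited intensity values are linear (3.85 to 23537), and log2 was taken here. Of 20672 probe sets, 17928 had 1 gene symbol in the platform annotation, 79 had several and 2665 none. Groups came from the labels; these do not tie samples to animals, so p-values measure the spread between samples, which may in part be technical. No 2 arrays held identical values. The files give no scan date, so batches were not tested. limma 3.58.1 in R 4.3.3 was fitted to the 19 arrays of 24 h, the 18 of day 7, the 37 wound arrays (change of effect) and all 42 (untreated skin), with Benjamini-Hochberg adjustment over all probe sets. Exact two-sided permutation tests were run beside it. The members, gene lists and tests were chosen with earlier results of these data known. Genes named per list were picked from the called genes with the largest changes and the most abundant uncalled ones with PDGF. Not all of these are named, and Rgs5 and Cspg4 with VEGF lie outside that rule. On simulated data the 24 h fit recovered 94% of 2-fold and 67% of 1.5-fold changes among 20672 probe sets, and the day 7 fit 96% and 65%. Alternatives were quantile normalisation, median centring, array weights, a filter on low probe sets, a pseudocount of 16, trend and robust estimation, a 1.5-fold threshold, the 5' level as a covariate, all 42 arrays in the fit, the methods' t-test, and leaving out each array. An alternative chosen after seeing the data fitted day 7 without the PDGF arrays. The number of arrays limits the precision. Motifs were searched in RefSeq start site windows of GRCm38.p6, which held Pdgfa, Pdgfc, Pdgfd and Pdgfra.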

Additional observations from a re-analysis of the deposited data

Results flagged for a closer look

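In 56 sets of 4 or 5 arrays tested, 4 held an array far from the others; chance gives about 1 in 20. Pdgfc in control wounds at 24 h was 7.34 in replicate 2, where the nearest array was at 7.94, and Pdgfd in the same array was 2.76, where the nearest was at 3.07. Pdgfc in IL-22-Fc wounds on day 7 was 9.02 in replicate 1, where the nearest was at 9.39. Pdgfrb in PDGF wounds at 24 h was 10.12 in replicate 4, where the nearest was at 9.79.

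In 4 cases the effect of a treatment differed between 24 h and day 7 by the test of the difference. The PDGF effect on day 7 minus that at 24 h was 0.93 for Pdgfb (adjusted p = 0.000385) and -2.08 for Pdgfd (SE 0.25, adjusted p = 5.54e-08). The VEGF effect on day 7 minus that at 24 h was 0.79 for Pdgfrb (adjusted p = 0.000438) and 0.75 for Pdgfd (SE 0.23, adjusted p = 0.0318). Pdgfd was near background in all wounds at 24 h, so both of its differences compare with a level that could not fall.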

How the results depend on the processing

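The difference of PDGF from control in Pdgfra at 24 h lay at the threshold: it was 0.37 (adjusted p = 0.0479) with quantile normalisation and 0.35 (adjusted p = 0.0396) with low probe sets left out, and 0.32 to 0.43 when single arrays were left out (adjusted p = 0.0366 to 0.229, called without control replicate 1, 0.43, or VEGF replicate 3, 0.35). Of the 7 genes, PDGF at 24 h called 2 with quantile normalisation, 1 with the filter, 2 with array weights and 0 to 2 without single arrays; without control replicate 2, Pdgfb (-0.50) and Pdgfrl (-1.08) were called, and without IL-22-Fc replicate 4, Pdgfrl (-0.83). With a 1.5-fold threshold the calls were 2 for PDGF on day 7, 1 and 3 for PDGF against IL-22-Fc at 24 h and on day 7, 2 for control at 24 h against untreated skin and 3 for day 7 against 24 h. With the filter they were 1 for PDGF against IL-22-Fc at 24 h and 1 each for the changes of the PDGF and VEGF effects; the filter removes Pdgfd throughout and Pdgfrl at 24 h.

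With the 5' level as a covariate, PDGF on day 7 called 1 gene against control (Pdgfd), 1 against VEGF, 0 against IL-22-Fc and 1 for the change of effect. Pdgfra against control was then 0.44. Signs turned for Pdgfc against control (-0.46) and against IL-22-Fc (-0.22), Pdgfb for PDGF against VEGF (0.50) and the change of the PDGF effect on Pdgfra (-0.12).

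Without single arrays the change of the VEGF effect called 1 to 2 genes, with Pdgfd at 0.64 to 0.83 (adjusted p = 0.00684 to 0.066) and lost without 9 arrays: control replicates 1, 3 and 4 and VEGF replicates 2 and 3 of 24 h, and control replicates 2, 3 and 4 and VEGF replicate 1 of day 7. The change of the IL-22-Fc effect called 0 to 1, the 1 without 24 h replicate 5. Pdgfc ranged from -0.09 to 0.14 for PDGF at 24 h and from -0.26 to 0.06 for control at 24 h against untreated skin, turning sign without control replicate 2 (and, for the latter, untreated replicate 3). Pdgfa at 24 h against untreated skin was not called without untreated replicate 5 (-0.21), and Pdgfd was then -0.99. On day 7 the calls of PDGF against IL-22-Fc were lost for Pdgfrl without PDGF replicate 1 (-0.43), Pdgfc without replicate 3 (0.30) and Pdgfrb without replicate 2 (0.34) or 3 (0.30), and Pdgfc against control was called without replicate 2 (0.36). The change of the PDGF effect on Pdgfrb was 0.35 (adjusted p = 0.101) and was called with array weights (0.47) and without 4 single arrays. Array weights also called Pdgfb (-0.37) and Pdgfrl (-0.89) for PDGF at 24 h and Pdgfrb against IL-22-Fc at 24 h (-0.33), and lost Pdgfa at 24 h against untreated skin. Quantile normalisation also called Pdgfrl for PDGF at 24 h (-0.87) and Pdgfb for PDGF against VEGF on day 7 (-0.37), and the filter Pdgfra for VEGF on day 7 (-0.28). Leaving out single arrays also called Pdgfrb against IL-22-Fc at 24 h (without PDGF replicate 4, -0.37), Pdgfra for VEGF on day 7 (without control replicate 5, -0.33, or VEGF replicate 1, -0.32) and Pdgfb for PDGF against VEGF on day 7 (without VEGF replicate 5, -0.42). The pseudocount left the calls but took Pdgfd from -1.92 to -0.90 for PDGF on day 7, from -3.00 to -1.66 against VEGF, from -1.70 to -0.77 against IL-22-Fc, from -2.08 to -0.96 for the change of effect, and in control wounds from -0.78 to -0.33 and 0.99 to 0.53 against untreated skin and from 1.77 to 0.85 between times, and Pdgfrl at 24 h from -0.83 to -0.53 against control, -1.17 to -0.76 against VEGF and -1.23 to -0.81 against IL-22-Fc. Median centring, trend and robust estimation, all 42 arrays in the fit and the day 7 fit without the PDGF arrays changed no call or direction. The methods' t-test gave 3 of the 7 genes for PDGF at 24 h, 0 after Benjamini-Hochberg adjustment, and 4 and 3 on day 7; over all 20672 probe sets it gave 2850 and 15 at 24 h and 8169 and 5994 on day 7. No paired analysis was possible because the labels give no replicate numbers. The causes were not tested.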
